A study of Mus musculus with 6 samples.

Results

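The endoplasmic reticulum stress response genes described here are 10 genes, Hspa5, Hsp90b1, Atf4, Atf6, Xbp1, Ddit3, Herpud1, Dnajb9, Calr and Pdia4. They were chosen by symbol, as every probe set that the array's annotation assigns to 1 of these genes, which gave 25 of 45101 probe sets and 10 of 18193 named genes. Their RNA was measured in the left ventricle of obese mice given Lira, an agent named only in this short form in the labels, against mice given placebo. All 6 animals were male C57BL/6 mice, an inbred strain, were 6 months old and, by the design text, had been on a high fat diet for 16 weeks, so the placebo mice shared the diet and no lean or untreated mouse was analysed here. Each group held 3 mice with 1 Affymetrix array each, and the design text speaks of 10 mice.

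The endoplasmic reticulum folds secreted and membrane proteins with the help of chaperones and of enzymes that form disulphide bonds. When unfolded proteins gather there, the membrane sensors IRE1, PERK and ATF6 start the unfolded protein response, which slows translation, raises the folding machinery and, if stress lasts, turns to genes of cell death. Heart muscle also stores calcium in this membrane system, and several of its chaperones, calreticulin among them, bind calcium.

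The promoters of several of these genes carry the DNA element through which the response is known to act. Their sequences are shown first, though the search was added after the signal values had been seen. The endoplasmic reticulum stress element, in short ERSE, was searched as CCAAT and CCACG with 9 bases of any kind between them, on both strands and in the 250 bases before the annotated start site. NF-Y is known to bind its CCAAT end, and cleaved ATF6 or spliced XBP1 its CCACG end. RefSeq promoters, build GRCm38.p6, were at hand for 9 of the 10 genes, all but Atf6. Hspa5, Hsp90b1 and Calr held the element, against 0.113% of the 32851 mouse promoters searched, which did not cover every chromosome. Hspa5 is shown from chr2:34772005-34772063 on the plus strand, Calr from chr8:84847055-84847113 on the minus strand and Hsp90b1 from chr10:86705513-86705676 on the minus strand. Each runs 5′ to 3′ along its gene, with both ends of the element in capitals and 20 flanking bases on either side.
Hspa5: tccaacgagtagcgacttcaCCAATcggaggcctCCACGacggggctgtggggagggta
Calr: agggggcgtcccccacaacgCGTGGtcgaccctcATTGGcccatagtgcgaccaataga
Hsp90b1: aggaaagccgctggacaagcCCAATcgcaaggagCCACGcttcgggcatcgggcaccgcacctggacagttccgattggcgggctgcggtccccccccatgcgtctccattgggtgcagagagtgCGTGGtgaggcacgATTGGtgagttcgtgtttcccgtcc

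In Hspa5 the element began 65 bases before the start site, on the gene's own strand. In Calr it began 162 bases before the start site, on the opposite strand, so it reads there as CGTGG followed by ATTGG. Hsp90b1 held 2 copies, beginning 212 and 107 bases before the start site and lying on opposite strands.

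Herpud1 held a related element, ERSE-II, searched as ATTGG and CCACG with 1 base between them, which 0.0304% of promoters held. It also held TGATGCAA, a form of the C/EBP-ATF response element through which ATF4 is known to act and which 0.791% of promoters held. The stretch chr8:94386297-94386407 on the plus strand is shown with both matches in capitals, the response element first, on the opposite strand.
Herpud1: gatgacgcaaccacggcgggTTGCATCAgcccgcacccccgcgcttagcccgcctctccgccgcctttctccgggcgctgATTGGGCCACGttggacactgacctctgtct

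Of the other 5 promoters, those of Atf4 and Dnajb9 held CCAAT and CCACG at other spacings, those of Ddit3 and Pdia4 held CCAAT only, and that of Xbp1 held none of the motifs searched. CCAAT alone stood in 33.8% of all promoters and CCACG alone in 28.3%, and both motifs also lie inside every ERSE and ERSE-II match. TGACGTGG, the core that XBP1 is known to prefer, was in 0 of the 9 promoters and in 0.563% of all. A match describes these letters only and does not show that a factor is bound. Genes and motifs were both taken as known parts of this response, so the shares above do not test a link between them.

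On the brightest probe set of each gene, no difference between Lira and placebo in any of the 10 genes passed the test. Limma on log2(signal + 16), with Benjamini-Hochberg adjustment over 12736 genes, called 0 of the 10 at an adjusted p of 0.05, where 0.055% of all genes tested were called. At an unadjusted p under 0.05 the count was also 0 of 10, where 6.01% of all genes tested passed. The groups overlapped in all 10, while they were apart in 11.5% of all genes tested. The log2 differences, Lira minus placebo, lay between -0.19 and 0.19 on these probe sets. Their median was 0.03, with 6 of 10 higher, and the median of all genes tested was 0.01, with 52.1% of them higher. All 10 genes had passed the filter on low values, which left out the 30% of genes with the lowest mean. The adjusted p-values ran from 0.844 to 0.999 and the standard errors from 0.08 to 0.23. The Entrez gene IDs are 14828 for Hspa5, 22027 for Hsp90b1, 11911 for Atf4, 226641 for Atf6, 22433 for Xbp1, 13198 for Ddit3, 64209 for Herpud1, 27362 for Dnajb9, 12317 for Calr and 12304 for Pdia4.

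**Figure D1:**
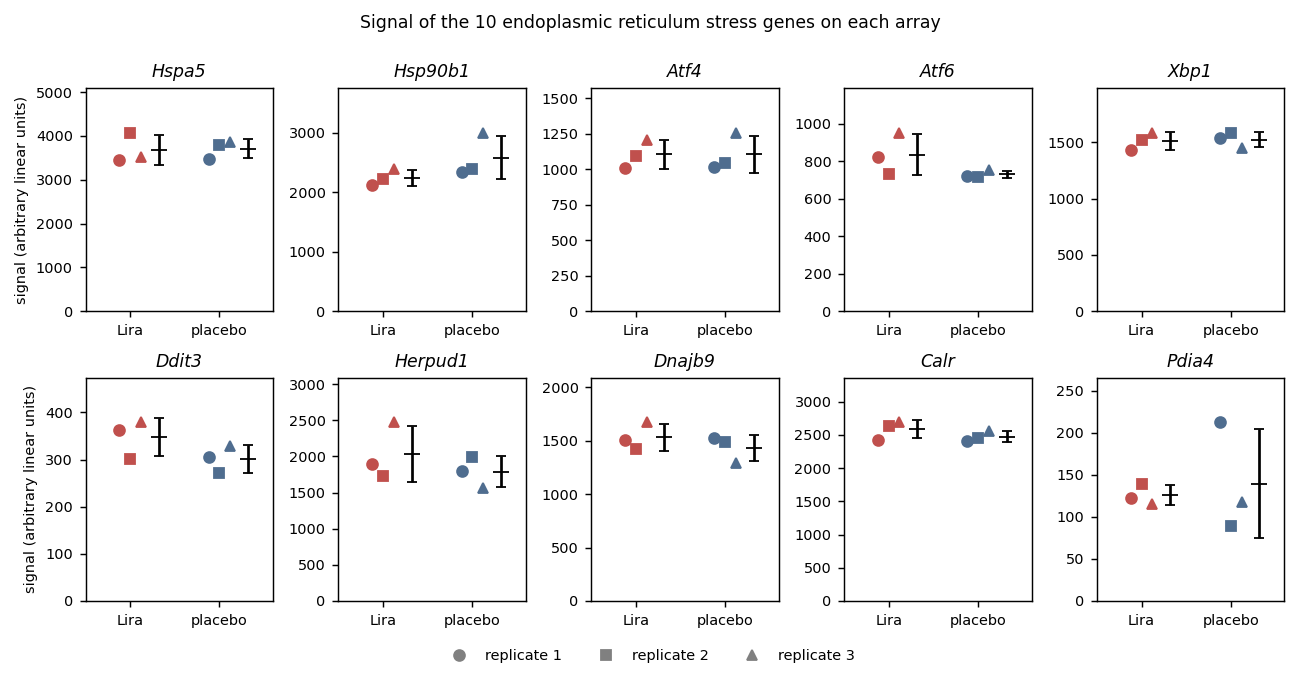
Signal in arbitrary linear units of the brightest probe set of each of the 10 genes on each of the 6 arrays, Lira on the left and placebo on the right of each panel. Symbols give the replicate number, and the bars beside the points give the mean and SD of 3 arrays. The groups overlap in all 10 panels, and the widest spread is that of Pdia4 with placebo, from 89.2 to 212 signal units.

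No chaperone of the lumen passed the test. Hspa5, also called BiP, is the Hsp70 chaperone of the endoplasmic reticulum that holds the stress sensors inactive, and its induction is a common readout of the response. It measured 3458, 4074 and 3509 signal units with Lira and 3473, 3800.4 and 3862 with placebo. The highest and the lowest of these 6 values were both Lira arrays, so the placebo values lay within the Lira range. The log2 difference was -0.01 ± 0.09 (SE), with a 95% interval from -0.21 to 0.18, which is 0.864-fold to 1.13-fold. Its second probe set differed by 0.05 ± 0.08 and its dimmest by -0.20 ± 0.16.

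Hsp90b1, known as Grp94, is the Hsp90 chaperone of the same compartment and folds integrins and Toll-like receptors. It measured 2116, 2221 and 2387 signal units with Lira and 2343, 2394 and 2999 with placebo. The 3 placebo arrays took 3 of the top 4 places, with the placebo array of replicate 3 well above the rest and Lira replicate 3 between the other placebo arrays. The log2 difference of -0.19 ± 0.10 had the smallest unadjusted p of the 10 genes, 0.0861, and an adjusted p of 0.844 in limma. Without placebo replicate 1 the difference was -0.26 with an unadjusted p of 0.0450, and without placebo replicate 3 it was -0.08. The dimmer probe set of Hsp90b1 gave -0.05 ± 0.16.

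Calr encodes calreticulin, a lectin chaperone for glycoproteins that also buffers calcium. It measured 2430.5, 2641 and 2690.0 signal units with Lira and 2402, 2452 and 2564 with placebo. Both the highest and the second highest array were Lira arrays, but Lira replicate 1 lay among the placebo arrays. The difference of 0.06 ± 0.08 had a 95% interval of -0.12 to 0.24, and the other probe sets of Calr gave 0.05 ± 0.10 and -0.05 ± 0.09.

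Pdia4, or ERp72, is a protein disulphide isomerase. Its brighter probe set measured 123, 139 and 115 signal units with Lira and 212, 89.2 and 117 with placebo. The Lira arrays stood close together, with an SD of 12.03, while the placebo arrays spread with an SD of 64.5 and held both extremes. The log2 difference was -0.06 ± 0.23, the widest error of the 10 genes, and it turned to 0.26 without placebo replicate 1 and to -0.30 without placebo replicate 2. The sign for Pdia4 therefore rests on single placebo arrays. Its dimmer probe set, at 12.6 with Lira and 17.7 with placebo, was left out of the test as too dim.

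The transcription factors of the response gave no difference past the threshold either. Atf6 is the membrane-bound factor that is cut in the Golgi and then enters the nucleus. It measured 822, 733 and 952 signal units with Lira and 722, 716 and 751 with placebo. Lira replicates 1 and 3 lay above all placebo arrays, and Lira replicate 2 lay inside the placebo range. The placebo arrays were close together, with an SD of 18.8 against 110 with Lira. The difference was 0.18 ± 0.11, with a 95% interval of -0.05 to 0.42 and an adjusted p of 0.863 in limma. Without Lira replicate 2 it was 0.27 with an unadjusted p of 0.0345 and an adjusted p of 0.719, and without Lira replicate 3 it was 0.09 with an unadjusted p of 0.434 and an adjusted p of 0.912. The 2 dimmer probe sets had the same sign, at 0.11 ± 0.13 and 0.21 ± 0.24, with overlapping groups in both.

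Xbp1 encodes the factor whose messenger RNA IRE1 splices to switch it on. The values do not separate the spliced from the unspliced form, so they bear on the total transcript as each probe set sees it. The brightest of its 4 probe sets measured 1431, 1524 and 1585.5 signal units with Lira and 1539, 1582 and 1451 with placebo, a difference of -0.01 ± 0.09. The groups of that probe set were interleaved.

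The other probe sets of Xbp1 did not share a sign. The second, by brightness, measured 1128, 1109.95 and 1253 signal units with Lira and 923, 1131 and 818 with placebo. That is a log2 difference of 0.29 ± 0.12 with an unadjusted p of 0.0323 and an adjusted p of 0.852 over 24462 probe sets in limma. Placebo replicate 2 lay above Lira replicates 1 and 2 there. The unadjusted p was 0.05 or more in 6 of 14 alternatives, which were median centring at 0.0817, no variance trend at 0.110, array weights at 0.0703, and leaving out Lira replicate 3 at 0.113, placebo replicate 1 at 0.0783 or placebo replicate 3 at 0.129. The difference was 0.18 without placebo replicate 3 and 0.41 without placebo replicate 2. The next gave 0.11 ± 0.11. The dimmest measured 74.3, 58.4 and 73.3 with Lira and 75.1, 89.97 and 84.5 with placebo, all Lira arrays below all placebo arrays, at -0.23 ± 0.19 with an unadjusted p of 0.235. Which of the probe sets follows the Xbp1 transcript best was not tested.

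Atf4 is translated when PERK phosphorylates eIF2-alpha and is controlled largely at translation, which arrays do not measure. It had 1010.3, 1097 and 1208 signal units with Lira and 1018, 1042 and 1258 with placebo, a difference of 0.0013 ± 0.11. The 6 values lay in pairs of similar height across the groups. A dimmer probe set of Atf4 measured 164, 191 and 129 with Lira and 182, 181 and 306 with placebo. Its difference of -0.41 ± 0.20 had an unadjusted p of 0.0661, and its placebo replicate 3 stood above all other arrays. The last probe set had group means of 3.34 with Lira and 5.47 with placebo and was left out as too dim.

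Ddit3 encodes CHOP, the factor downstream of ATF4 that is tied to cell death under lasting stress. It measured 362, 302 and 379 signal units with Lira and 305, 270.5 and 329 with placebo. The 2 highest arrays were Lira arrays and the lowest was a placebo array, with Lira replicate 2 below placebo replicates 1 and 3. The difference of 0.19 ± 0.13 had a 95% interval of -0.08 to 0.47 and an adjusted p of 0.867 in limma. The dim probe set of Ddit3, at 20.4 with Lira and 29.0 with placebo, gave -0.24 ± 0.44.

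Herpud1 and Dnajb9 act in protein disposal. Apart from Pdia4, Herpud1 had the widest range over the 6 arrays, 47.4% of its mean. Herpud1 encodes a membrane protein that helps to carry misfolded proteins to the proteasome. It measured 1898, 1726 and 2472 signal units with Lira and 1795, 1996 and 1567 with placebo. Lira replicate 3 stood above all other arrays and placebo replicate 3 below them. The difference was 0.17 ± 0.13 with an adjusted p of 0.885 in limma, and it was 0.03 without Lira replicate 3. Its second probe set gave 0.14 ± 0.16, with 1700.3, 1562 and 2274 signal units for Lira and 1838, 1939 and 1260.2 for placebo, and had the same highest and lowest array.

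Dnajb9, or ERdj4, is a DnaJ co-chaperone of Hspa5 that XBP1 is known to induce. It measured 1507, 1420.4 and 1672 signal units with Lira and 1524, 1486 and 1293 with placebo. As for Herpud1, the highest array was Lira replicate 3 and the lowest was placebo replicate 3. The difference was 0.10 ± 0.10, with a 95% interval of -0.12 to 0.31. Leaving out Lira replicate 3 gave 0.03 for Dnajb9, leaving out placebo replicate 3 gave 0.02, and leaving out Lira replicate 2 gave 0.15.

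**Figure D2:**
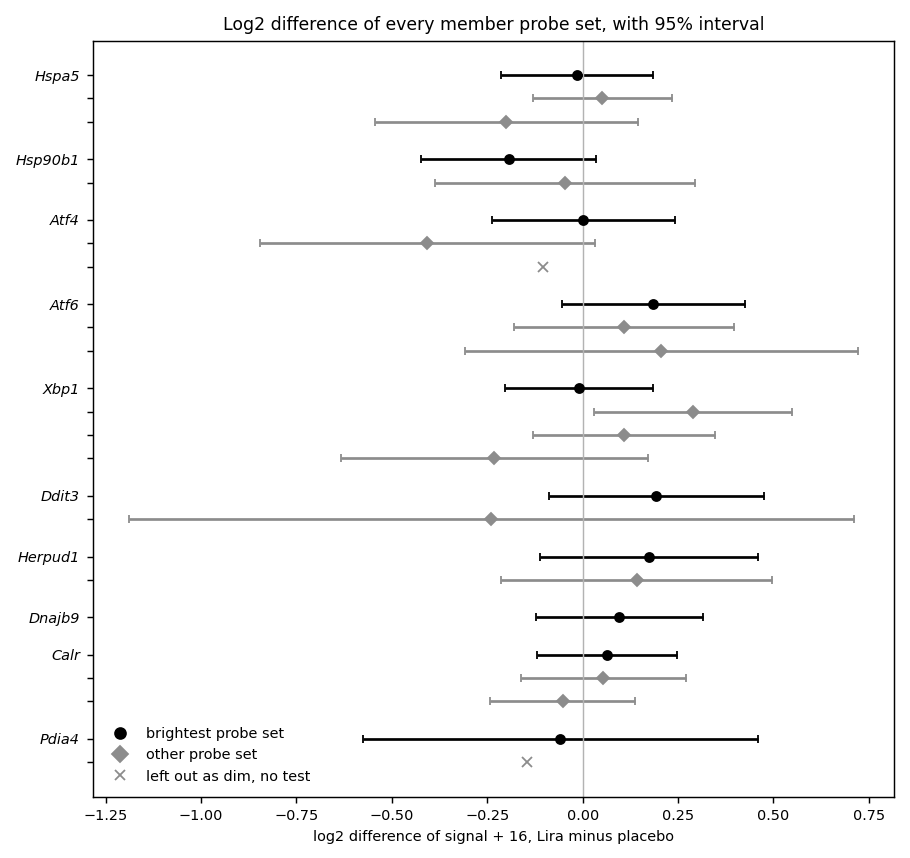
Log2 difference of signal + 16, Lira minus placebo, for each of the 25 probe sets of the 10 genes, grouped by gene with the brightest probe set of each on top. Bars are 95% intervals from limma fitted to 24462 probe sets, and crosses mark the 2 probe sets left out as too dim. Of the 23 intervals 1 lies off 0, that of the second Xbp1 probe set at 0.29, whose unadjusted p was 0.05 or more in 6 of 14 alternatives.

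Over the probe sets, 23 of 25 passed the filter on low values. Of these, 13 lay above 0 and 10 below it, around a median log2 difference of 0.05, and 0 passed an adjusted p of 0.05, where 0.00818% of all probe sets tested did. The groups were apart in 1 of the 23, or 4.35%, where they were apart in 11.2% of all probe sets tested. An unadjusted p under 0.05 was also reached by 1 of 23, against 5.62% of all. These probe sets are not independent of each other, since they read the same 10 genes on the same arrays. Atf6, Herpud1 and Hsp90b1 kept their sign on all their tested probe sets, while Hspa5, Atf4, Xbp1, Ddit3 and Calr had probe sets of both signs.

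The genes varied between single mice in different ways. Lira replicate 3 was the highest of the 6 arrays for Atf6, Xbp1, Ddit3, Herpud1, Dnajb9 and Calr, which are 6 of the 10. How many of all genes tested were highest on that array was not counted. Its median signal, 28.6, was the lowest of the 6 arrays at the same trimmed mean. Placebo replicate 3 was the lowest array for Herpud1 and Dnajb9 but the highest for Hsp90b1 and Atf4. On the log2 scale, that array lay 0.27 below the mean of the 6 arrays for Herpud1 and 0.19 below it for Dnajb9, and 0.32 above it for Hsp90b1. The high array for Hspa5 was Lira replicate 2, at 0.14 above its mean, where Herpud1 lay at -0.13. So no array was high or low for all 10 genes.

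Among all 45 pairs of the 10 genes, the closest relations over the 6 arrays were those of Herpud1 with Dnajb9 and of Atf6 with Ddit3. Herpud1 and Dnajb9 had a Pearson r of 0.92 (exact permutation p = 0.0236, adjusted over 45 pairs 0.531) and a Spearman rho of 0.77 (exact permutation p = 0.103, adjusted 0.951). Without the 2 arrays farthest from the median of Herpud1 the r was 0.46, so that relation rests on replicate 3 of both groups. Atf6 and Ddit3 had an r of 0.88 (exact permutation p = 0.00278, adjusted 0.125) and a rho of 0.94 (exact permutation p = 0.0167, adjusted 0.750), and an r of 0.87 without the 2 arrays farthest from the median of Atf6. After each group's mean was taken out, these correlations were 0.90 for Herpud1 with Dnajb9 and 0.80 for Atf6 with Ddit3. On that measure Hsp90b1 with Atf4, at 0.97, was the closest pair, and Atf4 with Calr, at 0.88, stood between the others. Over the 6 arrays Hsp90b1 and Atf4 had an r of 0.76 (exact permutation p = 0.0486, adjusted 0.729) and a rho of 0.71 (exact permutation p = 0.136, adjusted 0.951), and an r of 0.07 without the 2 arrays farthest from the median of Hsp90b1. Atf4 and Calr had an r of 0.76 (exact permutation p = 0.106, adjusted 0.871) and a rho of 0.77 (exact permutation p = 0.103, adjusted 0.951), and an r of 0.96 without the 2 arrays farthest from the median of Atf4. No pair passed the adjustment, so these values describe the 6 arrays only. The most opposed pair was Hspa5 with its co-chaperone Dnajb9, at an r of -0.66 (exact permutation p = 0.132, adjusted 0.871) and a rho of -0.71 (exact permutation p = 0.136, adjusted 0.951), with an r of -0.37 without the 2 arrays farthest from the median of Hspa5.

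**Figure D3:**
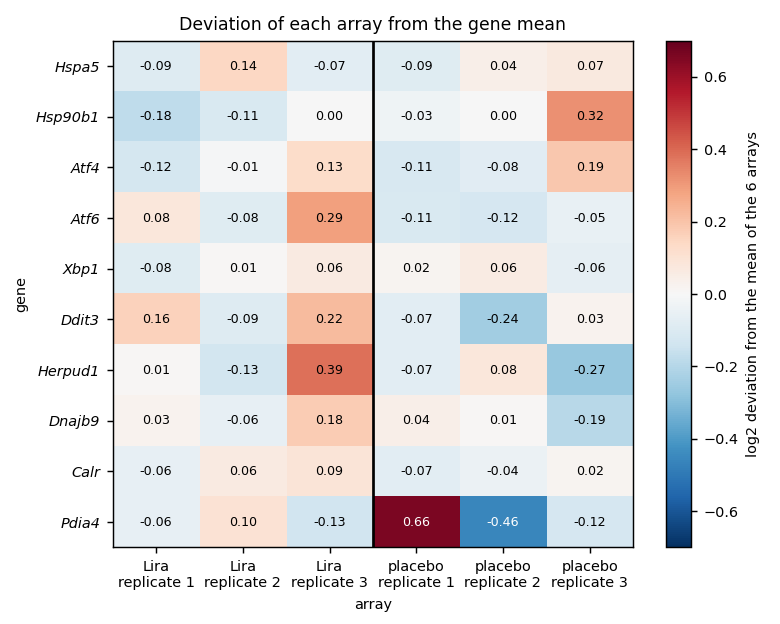
Deviation of each array from the mean of the 6 arrays, in log2(signal + 16), for the brightest probe set of each of the 10 genes, with Lira arrays left of the line and placebo arrays right of it. Red marks arrays above the gene's mean and blue arrays below it. Lira replicate 3 is at 0.39 for Herpud1 and 0.29 for Atf6, and the strongest colours are those of Pdia4 with placebo, at 0.66 and -0.46.

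The genes with an ERSE were set beside each other. Hspa5, Hsp90b1 and Calr, which carry it, differed by -0.01, -0.19 and 0.06, and the 6 other genes with a promoter searched by -0.06 to 0.19. Over the promoters searched, which did not cover every chromosome, 35 genes held the element in the window searched and 15 of them were tested. Of the 12 that are not among the 10 genes, 7 lay above 0 and 5 below it, at a median of 0.03. The 12 differences ran from -0.61 for Derl3 to 0.35 for Pdia6. On the lists of other unfolded protein response genes described next are 7 of the 12. 0 of these 12 passed an adjusted p of 0.05 in limma, where 0.055% of all genes tested did. 1 of the 12, Pdia6, had an unadjusted p under 0.05, where 6.01% of all genes tested did. The groups were apart in 2 of the 12, Pdia6 and Pan2, and in 11.5% of all genes tested.

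Other genes of the unfolded protein response, 91 on 6 lists, gave 84 tested genes, each taken on its brightest probe set unless stated. In limma 0 passed an adjusted p of 0.05 and 3 had an unadjusted p under 0.05, 1 higher and 2 lower with Lira, or 3.57% against 6.01% of all genes. The groups were apart in 9 of the 84, or 10.7%, against 11.5% of all genes. Positive differences numbered 45 and negative ones 39, around a median of 0.01.

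The folding list held the gene with the smallest p, Pdia6, a protein disulphide isomerase that is known to act on IRE1 and PERK. It measured 715, 885 and 767 signal units with Lira and 546, 673 and 632 with placebo. All Lira arrays lay above all placebo arrays, with Lira replicate 1 the nearest to them. The log2 difference was 0.35 ± 0.12 with an unadjusted p of 0.0101, but an adjusted p of 0.637 in limma, and the unadjusted p was 0.05 or more in 3 of 20 alternatives. The dimmer probe set of Pdia6 was left out of the test as too dim. Pdia6 carries an ERSE beginning 98 bases before its start site, which is shown from chr12:17266471-17266529 on the plus strand with the ends of the element in capitals.
Pdia6: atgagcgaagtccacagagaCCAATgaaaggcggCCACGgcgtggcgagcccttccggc

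The rest of the 21 tested folding factors included close partners of the 10 genes, and none had an unadjusted p under 0.05. In this list 13 genes lay above 0 and 8 below it, around a median of 0.03. Canx, the membrane-bound relative of calreticulin, differed by 0.04 ± 0.09 and the disulphide isomerase P4hb by 0.05 ± 0.08. The other probe sets of Canx gave 0.41 ± 0.22 and -0.13 ± 0.19. Pdia3, the isomerase that works with calreticulin, differed by 0.21 ± 0.19, and its placebo replicate 3 at 680 signal units was the lowest array against 1031 for the lowest Lira array. The dimmer probe set of Pdia3 gave -0.06 ± 0.28. For the co-chaperones of Hspa5, the difference was 0.21 ± 0.15 for Dnajb11 and 0.08 ± 0.21 for Sdf2l1. Hyou1, the large Hsp70 relative of this compartment, differed by -0.05 ± 0.17, and the secreted protein Manf by -0.19 ± 0.15.

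The PERK and ATF4 list had 19 tested genes, of which 7 lay above 0 and 12 below it, around a median of -0.03. Nfe2l2, the antioxidant factor NRF2 that PERK is known to phosphorylate, measured 932, 824 and 1032 signal units with Lira and 1208, 1073.5 and 1153 with placebo. All Lira arrays lay below all placebo arrays, at a log2 difference of -0.30 ± 0.10, an unadjusted p of 0.0126 and an adjusted p of 0.661 in limma. With the mean of its 2 probe sets the difference was 0.05. The dimmer of these had been left out of the probe set test as too dim. The unadjusted p for Nfe2l2 was 0.05 or more in 3 of 20 alternatives. Cebpb, a bZIP factor that pairs with ATF4 and CHOP, measured 1453, 1264 and 1659 with Lira and 1854, 1649 and 1727 with placebo, with Lira replicate 3 above placebo replicate 2. The difference for Cebpb was -0.26 ± 0.11 with an unadjusted p of 0.0284 and an adjusted p of 0.759 in limma. The unadjusted p was 0.05 or more in 6 of 20 alternatives. The dimmer probe set of Cebpb gave -0.09 ± 0.15 with an unadjusted p of 0.555 in limma and overlapping groups.

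The kinase gene Eif2ak3, which encodes PERK, differed by 0.31 ± 0.23. Of the genes that ATF4 or CHOP is known to raise, the difference was -0.01 ± 0.29 for the pseudokinase Trib3, -0.07 ± 0.15 for the phosphatase subunit Ppp1r15a, -0.06 ± 0.16 for the glutathione-degrading enzyme Chac1 and -0.03 ± 0.19 for the asparagine synthetase Asns. Others on that list lay farther from 0 in both directions, and Mthfd2, a mitochondrial folate enzyme, at 0.40 ± 0.32 and Psat1, of serine synthesis, at -0.36 ± 0.31 are named after their values were seen, with overlapping groups in both. Atf3, a stress-induced factor, measured 155, 109 and 132 signal units with Lira and 259, 122 and 198 with placebo, at -0.45 ± 0.22 with an unadjusted p of 0.0583 and an adjusted p of 0.825. Placebo replicate 2 of Atf3 lay below 2 of the Lira arrays, and without it the difference was -0.73 with an unadjusted p of 0.00204 and an adjusted p of 0.553. Without placebo replicate 1, the highest array, the difference for Atf3 was -0.23 with an unadjusted p of 0.309 and an adjusted p of 0.882.

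On the IRE1 and degradation list 6 of 13 tested genes lay above 0 and 7 below it, around a median of -0.0046, with 0 at an unadjusted p under 0.05 in limma. Ern1, which encodes IRE1-alpha, differed by 0.22 ± 0.16, the ubiquitin ligase Syvn1 by -0.03 ± 0.11, its partner Sel1l by -0.02 ± 0.12 and the mannosidase-like Edem1 by -0.07 ± 0.21. The other tested probe sets of Ern1, both dim, gave -0.16 ± 0.39 and 0.44 ± 0.35. Those of Sel1l ran from -0.06 ± 0.24 to 0.39 ± 0.23. Among the proteases and factors around ATF6, 8 of 10 lay above 0 and 2 below it, around a median of 0.07, again with 0 at an unadjusted p under 0.05. Mbtps1, the site-1 protease that cuts ATF6, measured 439, 408 and 427 signal units with Lira and 388, 425 and 340 with placebo, a difference of 0.14 ± 0.12 with overlapping groups. The translocation and transport list had 8 of 14 higher, with a median of 0.07, and the list of cell death genes tied to this stress 3 of 7 higher, with a median of -0.04, each with 0 genes at an unadjusted p under 0.05. The groups were apart in 3 of the 7 cell death genes, or 42.9%, 2 higher and 1 lower with Lira. They were apart in 2 of the 14 transport genes, or 14.3%, and in 11.5% of all genes tested. The counts were 2 of 21 folding factors, 2 of 19 PERK and ATF4 genes, and 0 on the IRE1 and ATF6 lists.

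**Figure D4:**
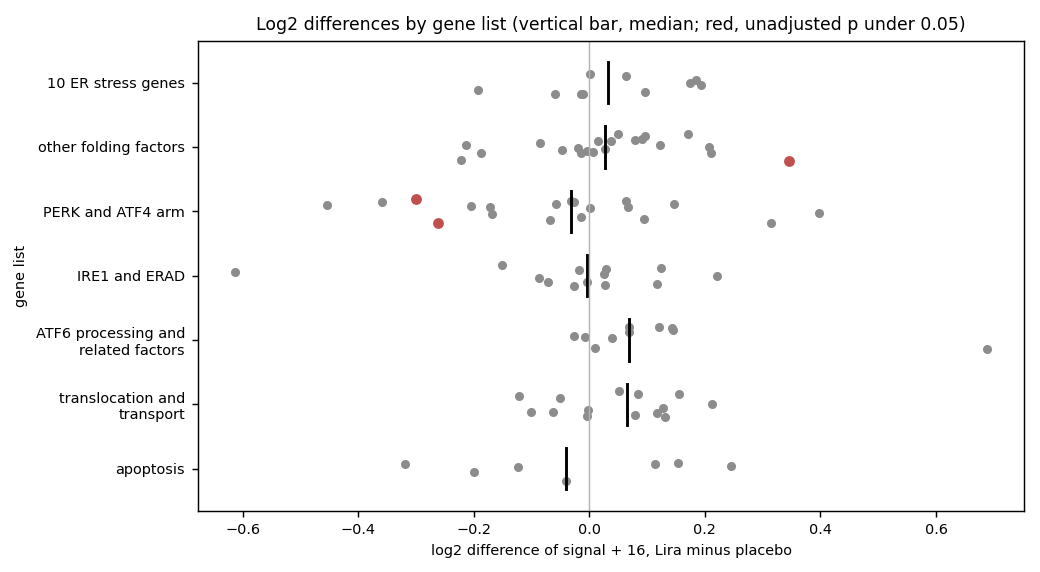
Log2 difference of signal + 16, Lira minus placebo, of the 10 genes and of the 84 tested genes of the 6 other lists, 1 point per gene, with a vertical bar at each median. Red points have an unadjusted p under 0.05 and are Pdia6 among the folding factors and Nfe2l2 and Cebpb in the PERK and ATF4 arm. The medians lie between -0.04 and 0.07.

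Arrays give no read depth, and precision here depends on how many were run and on how far each gene varied between them. Every array was scaled to a 2% trimmed mean of 150 signal units, with medians of 28.6 to 39.6. The labels' extraction text speaks of blood while their description names left ventricle. The 6 cardiomyocyte markers summed to 136684 to 167984 signal units with Lira and 136278 to 144824 with placebo, and the 3 of 6 red cell markers with a probe set of 1 gene to 32.4 to 55.1 with Lira and 43.6 to 111 with placebo. Secretory and immune cells hold much endoplasmic reticulum, and in bulk tissue more such cells and more RNA per cell cannot be told apart. The 6 macrophage markers summed to 2605 to 3038 with Lira and 2472 to 2545 with placebo, without overlap, and 6 of 7 B and plasma cell markers to 367.2 to 402 with Lira and 332 to 368 with placebo. All 6 macrophage markers had positive log2 differences, and 0 had an unadjusted p under 0.05 in limma. The groups of Adgre1 and C1qa were apart, as in 11.5% of all genes tested. Those of Cd68, Csf1r, C1qb and Mrc1 overlapped. Sums without overlap were also those of the 6 smooth muscle or pericyte markers, at 10664 to 12084 with Lira and 9255 to 10388 with placebo. Among these, Acta2 measured 3377, 1579 and 1518 with Lira and 1122, 1074 and 1391 with placebo. Tagln overlapped, at 192, 243 and 170 against 201, 230 and 178. The 6 atrial markers summed to 1640 to 2275 with Lira and 2811 to 3227 with placebo, also without overlap. Most of that sum was Nppa, at 2142, 1386 and 1862 with Lira and 2845, 2610 and 3037 with placebo. Myl4 went the other way, at 115, 120 and 109 with Lira and 108, 77.1 and 93.9 with placebo. The 6 fibroblast markers summed to 11378 to 13941 with Lira and 11088 to 12002 with placebo. Of these, 3 were higher and 3 lower with Lira. In limma 2 of the 6 had an unadjusted p under 0.05, where 6.01% of all genes tested did. Dcn, the brightest, measured 8706, 7303 and 7918 with Lira and 6676, 6828 and 6867 with placebo. Col3a1 went the other way, at 1424, 944 and 1036 with Lira and 1707, 1513 and 1571 with placebo. The groups of the other fibroblast markers overlapped. The part of these cells in the values of the 10 genes was not tested.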

How the data were processed

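Left ventricular total RNA was hybridised as biotin-labelled target to 1 Affymetrix array per mouse. The authors deposited linear signal intensities per probe set, which per the submitters' processing notes come from Affymetrix Expression Console, version and algorithm not stated. Each array has the same trimmed mean, so changes show only relative to other genes, and detection calls were not used.

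The 64 control probe sets were dropped. 34945 probe sets had 1 gene name, 932 had several and 9160 had no entry in the name table. Gene IDs linked 99.42% of the single names to RefSeq symbols (GRCm38.p6). Each of 18193 genes took its probe set with the highest mean log2(signal + 16). The lowest 30% of genes were dropped, which left 12736. Folds on this scale understate those of dim genes. The groups were compared by limma (3.58.1, R 4.3.3; eBayes with a variance trend, two-sided, Benjamini-Hochberg), by gene and again for every named probe set. The script was checked on simulated data.

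The 10 genes, lists and tests were chosen with earlier results of these data known. The promoter search and the gene pairs were added after the values were seen. Of 3 ways to take the mean that picks the probe set and sets the filter, the one whose counts matched an earlier result was kept, and the other 2 were run as alternatives. The text names the 10 genes, up to 3 genes of each list with the smallest unadjusted p under 0.05, and 19 pathway genes regardless of value. Genes of the lists whose groups were apart or whose differences were widest were added after their values were seen. Alternatives were other scalings, filters, pseudocounts, probe set rules and variance models, a replicate block, and leaving out each array.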

Additional observations from a re-analysis of the deposited data

How the results depend on the processing

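0 of the 10 genes passed an adjusted p of 0.05 in limma under any of 20 alternatives, with 0.719 the smallest adjusted p among 200 values. At an unadjusted p under 0.05 the count was 0 to 1 with single arrays left out, which was Atf6 without Lira replicate 2 and Hsp90b1 without placebo replicate 1. The count of all genes called, 7, was 1 to 9 with single arrays left out: Lira replicate 3 gave 1, placebo replicate 2 gave 2, Lira replicate 2 gave 3 and Lira replicate 1 gave 4. It was 1 with no filter on low values, 2 with every probe set tested, and 0 with probe sets averaged per gene or without the variance trend, where 684 and 691 genes had an unadjusted p under 0.05. The 3 genes of the other lists at an unadjusted p under 0.05 became 1 with median centring, 1 with probe sets averaged, 5 with array weights, and 2 to 7 with single arrays left out, where placebo replicate 2 gave 5 and Lira replicate 3 gave 7. The causes were not tested.

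Of these alternatives 2, chosen after seeing the data, took the mean of the linear signal in place of log2 to pick the probe set, and in 1 of them also for the filter; both gave 7 genes in all, 0 of the 10 genes and 3 genes of the other lists. The sign was kept in all 20 alternatives by Hsp90b1, Atf6, Herpud1, Dnajb9 and Calr. With probe sets averaged per gene the log2 difference was -0.17 for Atf4, 0.039 for Xbp1, -0.023 for Ddit3, 0.048 for Nfe2l2, 0.12 for Asns, 0.017 for Hyou1, 0.14 for Sel1l and 0.0023 for Syvn1. Hspa5 was at 0.00099 after quantile normalisation and Trib3 at 0.0013 with a pseudocount of 1. With single arrays left out the range was -0.090 to 0.028 for Hspa5, -0.064 to 0.096 for Atf4, -0.045 to 0.029 for Xbp1, -0.30 to 0.26 for Pdia4, -0.29 to 0.34 for Trib3, -0.17 to 0.11 for Hyou1, -0.29 to 0.15 for Edem1, -0.15 to 0.051 for Ppp1r15a, -0.14 to 0.078 for Asns, -0.067 to 0.24 for Sdf2l1, -0.20 to 0.031 for Chac1, -0.021 to 0.093 for Canx, -0.095 to 0.10 for Sel1l, -0.075 to 0.39 for Pdia3 and -0.056 to 0.014 for Syvn1.

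Same-numbered arrays had correlations of deviations of -0.034, 0.090 and -0.087, so the numbers were not taken to pair mice. With the replicate block 6 genes in all, 0 of the 10 genes and 4 genes of the other lists were counted. With 3 arrays a group, the standard errors of 0.08 to 0.23 set the smallest change that could be seen.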

Other observations

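Some genes of the other lists had, on their brightest probe set, groups that were apart without an unadjusted p under 0.05 in limma. They are given as values, chosen after their values were seen. Kdelr1, the receptor that returns escaped chaperones to the endoplasmic reticulum, measured 907, 917 and 973 signal units with Lira and 901, 790.4 and 817 with placebo, a log2 difference of 0.16 ± 0.10. Ssr1, of the translocon, differed by 0.12 ± 0.10. Both lay higher in all Lira arrays, with 907 in Lira replicate 1 and 901 in placebo replicate 1 the nearest pair of Kdelr1. Tmbim6, a membrane protein that restrains cell death under this stress, measured 1875, 1729 and 1793 with Lira and 1697, 1614 and 1674 with placebo, a difference of 0.11 ± 0.08.

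The IRE1 adaptor Traf2 differed by 0.24 ± 0.17 and the kinase Map3k5, or ASK1, by -0.20 ± 0.11, each with groups that were apart. Vldlr, a lipoprotein receptor that ATF4 is known to raise, measured 4683, 4806 and 4885 with Lira and 5274, 5234 and 5656 with placebo. That is a difference of -0.17 ± 0.08 with an unadjusted p of 0.0505 and an adjusted p of 0.818 in limma. The other probe sets of Vldlr gave -0.32 ± 0.11, -0.20 ± 0.08, -0.21 ± 0.18, -0.14 ± 0.11 and 0.03 ± 0.09. In limma over all probe sets, the first of these had an unadjusted p of 0.0107 and an adjusted p of 0.736. The second had an unadjusted p of 0.0368 and an adjusted p of 0.873. Fkbp11, a dim folding factor, differed by -0.22 ± 0.24. The widest differences on the lists were those of the dim genes Creb3l1, at 0.69 ± 0.39, and Derl3, at -0.61 ± 0.37, each with overlapping groups. Derl3, like Pdia6, carries an ERSE.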
